A study of Ovis aries with 2 samples.

Results

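Mitotic hair matrix cells were 161 of the 14037 cells in a single-cell RNA-seq table of Hu sheep lambskin, 60 of 6452 cells in the straight wool library and 101 of 7585 in the curly wool library. The cells were chosen by measured values. Each had at least 10 counts per 10000 (CP10K) of DCN and a UMI of FABP7 or C1QTNF12, where a UMI marks 1 captured RNA molecule. COL1A1 lay below 5 CP10K, the inner root sheath keratins KRT71, KRT25, KRT27 and KRT28 together below 20 CP10K, and the hair shaft keratin KRT35 below 5 CP10K. At least 4 of the 6 cell cycle genes TOP2A, BIRC5, MKI67, UBE2C, CENPF and CDK1 had a UMI. The name mitotic stands for this rule only, since cells rich in S phase transcripts were among them, as given below.

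Skin was taken from the body side of lambs at day 3 after birth, from straight wool individuals and from individuals with waved wool, which are called curly here. All lambs were Hu sheep under the same management and received no treatment other than local anaesthesia. Skins were pooled within each wool type, cells from dissected follicles were added to cells from undissected skin, and each pool gave 1 library. No spread between lambs could be measured, so values have counting intervals only, no test between wool types was made, and how many cells of a type were found depends on how these suspensions were combined.

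The hair matrix is the ring of epithelial cells that surrounds the dermal papilla at the base of a growing follicle. Its cells divide rapidly, and their daughters move upward to form the inner root sheath and the hair shaft, under WNT, BMP, Hedgehog, FGF and Notch signals exchanged with the papilla. Passage through the cell cycle is marked by waves of transcripts, with DNA replication genes in S phase and genes of the spindle, the kinetochore and chromosome condensation in G2 and mitosis.

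The chosen cells held 1028618 UMIs in the straight and 1862279 in the curly library. Their median depth was 18502 UMIs (range 4621 to 27116) and 18688 UMIs (4553 to 27702), against 7373.5 and 7495 for all cells of these libraries. A median of 3460 and 3457 genes was detected per cell. UMIs were summed over cells and divided by all UMIs of these cells, and the levels are given as CPM, with 1000000 UMIs as the base. A gene without a UMI in the summed cells may lie at up to 2.92 CPM in the straight and 1.61 CPM in the curly cells, which is the level of 3 counts. Among the chosen cells 3 straight and 2 curly cells were in the highest 6% of doublet scores of their library. The libraries shared 70 cell barcodes, which were carried by 3 straight and 1 curly of these cells.

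Mitotic matrix cells made up 0.930% of the straight library (exact 95% binomial interval 0.710 to 1.20) and 1.33% of the curly library (1.09 to 1.62). All cells that met the matrix gates, whatever their cycle genes, made up 3.44% (3.01 to 3.91) and 5.18% (4.69 to 5.70). The intervals of the wool types did not overlap for the matrix cells, and did for the mitotic cells among them. The mitotic share of matrix cells was 27.0% in straight (21.3 to 33.4) and 25.7% in curly (21.4 to 30.3). The rule counts detected genes, so the mitotic shares depend on depth. Median depth was 15995 UMIs in straight matrix cells with 0 of the 6 cycle genes and 18129 UMIs with 6, and 15318 and 20060 UMIs in curly. With every cell thinned to 4000 UMIs, 17 straight and 27 curly cells met the rule, 9.94% and 9.38% of matrix cells. The share of matrix cells that met the cycle gene rule was thus close between the libraries, while the share of matrix cells in the library differed. These intervals, like all that follow, cover counting error only. The authors state more cells after quality control than the deposited table holds, so these are shares of the cells in the table. The most genes in any cell of the table were 3999 in straight and 3998 in curly, and the mitotic matrix cells reached 3929 and 3952. Whether cells with more genes were left out of the table, and so out of these shares, was not tested.

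Matrix cells were found at every number of cycle genes from 0 to 6. Such a count cannot tell a gradient from 2 groups, since an expressed gene can be missed in a cell. In straight, 65, 44, 27, 26, 23, 26 and 11 matrix cells had 0, 1, 2, 3, 4, 5 and 6 of the 6 genes, and in curly 135, 69, 44, 44, 31, 41 and 29. The cells at the threshold were compared by their summed levels. CCNB1 lay at 70.0 CPM in the 23 straight cells with 4 genes and at 32.0 CPM in the 26 with 3 genes, and at 138 and 31.1 CPM in the 31 and 44 curly cells. PCNA, which acts at the replication fork, differed less across this limit, with 337 and 304 CPM in straight and 359 and 396 CPM in curly. MSX1 lay at 259 and 185 CPM in straight and at 176 and 117 CPM in curly. At the DCN gate, 1 straight and 4 curly cells lay between 10 and 12 CP10K, and 4 and 3 cells that met every other gate lay between 8 and 10 CP10K. Among the matrix gates, the DCN gate decided the most: without it 63 straight and 64 curly cells would have been added, against 13 and 48 without the KRT35 gate and 6 or fewer without any other single matrix gate. Without the cycle gene gate, 162 straight and 292 curly cells would have been added.

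The genes of the rule are given as a description. DCN, which encodes the proteoglycan decorin, ranged from 10.0 to 143 CP10K with a median of 42.7 in the 60 straight cells, and from 10.1 to 173 CP10K with a median of 50.3 in the 101 curly cells. FABP7, a fatty acid binding protein, ranged from 0 to 66.4 CP10K (median 2.23) in straight and from 0 to 48.5 (median 0.997) in curly. C1QTNF12, a secreted protein of the C1q and TNF related family, ranged from 0 to 12.7 (median 2.81) and from 0 to 13.0 (median 1.79). FABP7 had no UMI in part of the cells. Of the chosen cells, 19 straight and 40 curly entered the group with C1QTNF12 alone, against 12 and 24 with FABP7 alone and 29 and 37 with both. UBE2C, which loads ubiquitin for the anaphase promoting complex, had a median of 5.19 CP10K (0 to 32.8) in straight and 4.68 (0 to 26.6) in curly. TOP2A, the topoisomerase that untangles sister chromatids, had a median of 2.61 CP10K (0 to 24.4) and 2.196 (0 to 15.7). Summed over cells, FABP7 reached 926 and 679 CPM, against 3.12 and 5.15 CPM in the endothelial cells of the same libraries (156 straight and 111 curly cells with at least 3 of 6 endothelial genes), which served as the background from free RNA.

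**Figure D1:**
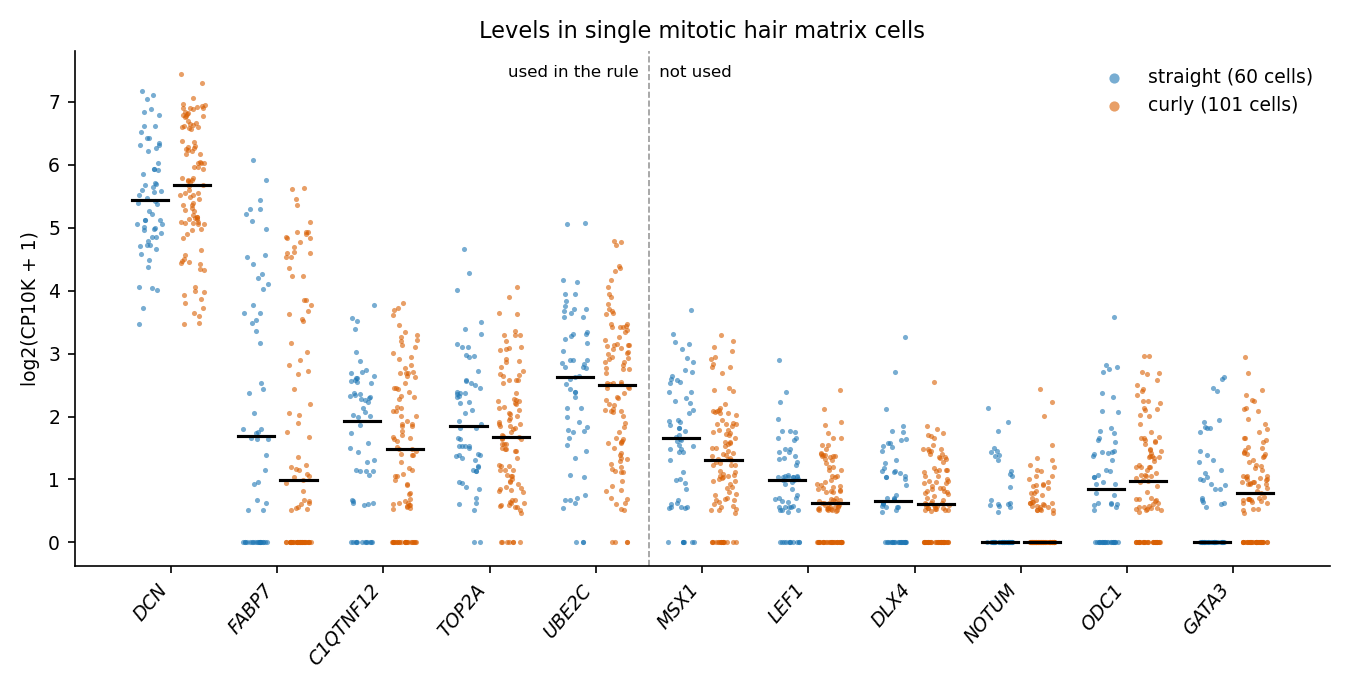
Levels of 11 genes in each of the 60 straight and 101 curly mitotic matrix cells, as log2 of CP10K plus 1 on the vertical axis; points are cells, black bars are medians, and the dashed line separates genes used in the rule from genes that were not. DCN is above the gate in every cell by construction, while FABP7 spreads from 0 to 66.4 CP10K, and MSX1 lies above 0 in most cells of both libraries.

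The label was checked against MSX1 and LEF1, which the rule did not use. The other matrix markers outside the rule, MSX2, HOXC13 and ID3, are given further below, and ID3 was within 2-fold of cycling basal cells in curly. MSX1, a homeobox factor of the matrix, had UMIs in 88.3% of straight and 84.2% of curly cells, against 6.41% and 14.6% of cycling basal cells, which had the same cycle genes with high KRT5 and low DCN, and 36.5% and 36.9% of endothelial cells. LEF1, the nuclear partner of beta-catenin, had UMIs in 81.7% and 67.3%, against 8.33% and 8.99% of cycling basal cells and 16.0% and 9.01% of endothelial cells. For MSX1 the endothelial share lay above the basal share, so that it is not taken as a background from free RNA. The median depths of the endothelial cells were 6611 and 5524 UMIs, below that of the matrix cells, and at 4000 UMIs per cell the shares for MSX1 were 53.3% and 45.5% against 27.7% and 28.6% of endothelial cells. For LEF1 they were 41.7% and 27.7% against 11.6% and 7.14%. Markers of endothelial, immune and blood cells were near 0, while those of other skin cells were found. The endothelial list summed to 6.81 CPM in straight and 2.15 CPM in curly with 2 and 1 of 10 genes detected, the immune list to 10.7 and 4.83 CPM with 6 and 4 of 9 genes, and no UMI of the 3 haemoglobin genes was found. The list of dermal genes summed to 53.5 and 30.6 CPM, with 9 and 7 of 10 genes detected. The suprabasal list summed to 395 and 631 CPM, with all 10 genes detected in each library. In endothelial cells it summed to 1313 and 3431 CPM, so it is not read as expression by the matrix cells. The dermal papilla list stood apart by library, at 668 CPM in straight cells and 103 CPM in curly cells. It was higher in endothelial cells, at 958 and 1492 CPM.

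To describe what the chosen cells expressed beyond the 6 genes, their UMIs were summed and compared within each library with non-mitotic matrix cells. The latter passed the same gates with at most 1 of the 6 genes (109 straight and 204 curly cells). Genes of G2 and mitosis were far higher, and genes of S phase hardly so. Few genes of the hair lineage and of the signalling pathways were 2-fold apart in both libraries. Of 5292 genes with at least 100 UMIs, 121 (2.29%) were at least 2-fold higher in mitotic cells in both libraries and 18 (0.34%) at least 2-fold lower. The median log2 ratio over these genes was 0.07 in straight and 0.12 in curly. Cycle genes were tied to the choice of cells, so their ratios are a description and nothing is read from these shares for them.

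Among G2 and M regulators, 15 of 18 measured genes were at least 2-fold higher in both libraries and none lower, with a median log2 ratio of 3.04 in straight and 2.93 in curly. CCNB1, the cyclin that drives entry into mitosis, lay at 139 CPM in both libraries, against 6.24 and 7.49 CPM in non-mitotic cells (log2 ratio 4.48, interval 3.56 to 5.57, and 4.21, 3.59 to 4.89). CCNB2, a related B-type cyclin, was higher by 5.25 and 6.26 on the log2 scale. CCNA2, the cyclin of S phase and G2, lay at 71.0 and 98.8 CPM against 2.50 and 3.26 CPM. The kinase genes PLK1 and AURKB, which act in spindle assembly and chromosome alignment, were higher by 4.50 and 4.25 and by 5.61 and 6.20. These genes were close to absent from the non-mitotic cells, where AURKB had 4 UMIs in straight and 7 in curly. CDC20, which activates the anaphase promoting complex, lay at 118 and 127 CPM, with 3 UMIs in all straight non-mitotic cells (log2 ratio 5.97, interval 4.39 to 8.27) and 13 in curly (4.91, 4.11 to 5.84).

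Of the spindle and cytokinesis genes 20 of 22 were at least 2-fold higher and none lower, with medians of 4.04 and 4.00. TPX2, which targets Aurora A to the spindle, was higher by 4.31 and 5.01 on the log2 scale, and KIF23, a kinesin of the midbody, by 2.74 and 5.29. Of the kinetochore genes 10 of 16 were higher and none lower. CENPA, the centromeric histone, lay at 200 CPM and 185 CPM against 4.99 and 7.49 CPM. CENPE, a kinesin that carries chromosomes to the plate, lay at 77.8 and 105 CPM against 1.87 and 6.19 CPM. NDC80, which couples kinetochores to microtubules, was higher by 4.45 and 4.22. Of the chromosome genes 15 of 18 were higher, by less than the spindle genes in the median (1.84 and 1.88). HMGB2, a chromatin protein of dividing cells, was already present in the non-mitotic cells at 193 and 179 CPM and reached 1149 and 1269 CPM. H2AFZ, a histone variant, was higher by 1.18 and 1.45, and SMC4, a condensin subunit, by 1.85 and 2.12. Beside genes of the rule, CDCA3, which promotes the destruction of WEE1, and PIMREG, a mitotic regulator, were among the 10 genes with the largest ratios, at 6.06 and 5.90 and at 5.08 (interval 3.47 to 7.39, 3 UMIs in straight non-mitotic cells) and 5.63.

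S phase genes followed another course. Of 38 with enough UMIs, 3 were at least 2-fold higher and 2 lower, and their median log2 ratio of 0.08 and 0.14 lay near that of all genes. DUT, which keeps uracil out of DNA, lay at 1355 and 1484 CPM against 657 and 696 CPM. CLSPN, a checkpoint adaptor at the fork, and ASF1B, a histone chaperone, were higher by 1.42 and 1.28 and by 2.55 and 3.05. MCM5, a subunit of the replicative helicase, was lower, at 41.8 and 41.9 CPM against 114 and 123 CPM (log2 ratio -1.45, interval -1.96 to -0.96, and -1.56, -1.93 to -1.20). UNG, the uracil glycosylase of base excision repair, was lower too, at 34.0 and 31.1 CPM against 99.2 and 104 CPM. Not all genes of replication went the way of MCM5, since PCNA lay at 256 and 346 CPM against 168 and 219 CPM.

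Across all matrix cells, the level of these lists followed the number of cycle genes detected. The summed level of the G2/M, kinetochore and spindle lists increased from 2034 CPM in straight cells with 0 of 6 genes to 4663 CPM with 3 and 12275 CPM with all 6, and in curly from 1901 to 4297 and 9817 CPM. The S phase list in straight was 2532 CPM at 0 genes, 4253 CPM at 4 and 3357 CPM at 6, and in curly 2937 CPM at 0, 4523 CPM at 3 and 3942 CPM at 6. The S phase list was thus highest in cells near the threshold of the rule, on both sides of it. MCM5 lay at 95.8 CPM at 0 genes, 141 at 1 and 31.4 at 6 in straight, and at 118, 133 and 23.8 CPM in curly, with its highest value in curly, 151 CPM, at 2 genes. In single mitotic cells the S phase list ranged from 11.95 to 88.1 CP10K (median 30.8) in straight and from 13.2 to 120 (median 34.4) in curly, and the G2/M, kinetochore and spindle lists together from 27.9 to 238 (median 79.1) and from 12.3 to 221 (median 78.9). Cells with 3 of the 6 genes had higher S phase medians, 43.8 and 40.6 CP10K, and mitosis medians of 46.0 and 39.9 CP10K. The non-mitotic cells overlapped with the mitotic cells in both sums, with S phase medians of 25.5 and 26.7 and mitosis medians of 22.4 and 18.2.

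**Figure D2:**
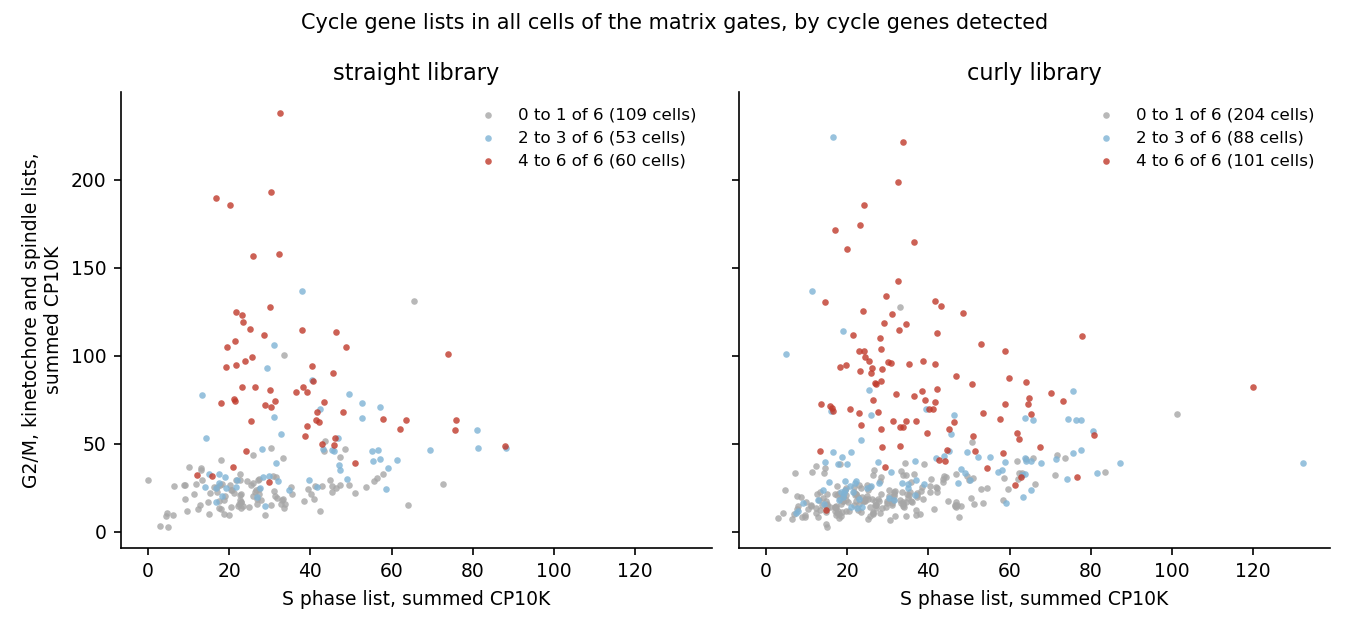
Summed CP10K of the S phase list (horizontal axis) against the summed CP10K of the G2/M, kinetochore and spindle lists (vertical axis) in every cell of the matrix gates, with the straight library on the left and the curly library on the right and colours for the number of the 6 cycle genes detected. Mitotic cells (red) reach 238 and 221 CP10K of mitosis genes, while cells with 2 to 3 genes (blue) overlap with them and with the non-mitotic cells (grey), and 1 curly cell with 3 genes reaches 224 CP10K.

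Of the genes that act in G1 and at cell cycle exit, 2 of 12 were at least 2-fold higher and none lower, beside 2.29% and 0.34% of all genes. MYBL2, a factor for late cycle genes, was higher by 1.40 and 2.26 on the log2 scale, and CDKN2D, an inhibitor of CDK4 and CDK6, by 1.40 and 1.72. The D cyclins and their kinases were at similar levels in both states. CCND1 lay at 224 and 166 CPM against 260 and 170 CPM in the non-mitotic cells, with log2 ratios of -0.21 and -0.03. CCND2, CDK6 and CDK4 had ratios of -0.22 and -0.38, of -0.27 and -0.30 and of 0.14 and 0.08.

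None of 23 hair lineage factors, 23 WNT genes, 11 BMP genes, 6 Notch genes and 25 growth and ribosome genes was 2-fold apart in both libraries. The share over all genes was 2.29% higher and 0.34% lower, so little is read from these counts. MSX1 lay at 289 and 201 CPM in mitotic cells and at 169 and 151 CPM in non-mitotic cells (log2 ratio 0.77, interval 0.53 to 1.02, and 0.41, 0.21 to 0.61). The interval for LEF1 included equal levels in both libraries (0.34, -0.05 to 0.73, and -0.22, -0.53 to 0.08). NOTUM, a lipase that inactivates WNT ligands, had ratios of 0.31 (-0.29 to 0.89) and 0.36 (-0.10 to 0.81). Of 16 FGF, IGF and EGF genes 2 were lower, IGF2 and IGFBP3. None of 17 basal layer genes and none of 17 genes of the dissociation response was 2-fold apart either.

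Few genes outside the cycle were lower in mitotic cells. ALDH1A3, an enzyme of retinoic acid synthesis, lay at 5.83 and 2.15 CPM against 53.7 and 15.6 CPM (log2 ratio -3.20, interval -4.69 to -2.02, and -2.86, -4.80 to -1.41). TNFRSF13B, a receptor of the TNF family, lay at 10.7 CPM in both libraries against 46.2 and 29.0 CPM. The other named genes of this kind are expressed by dermal and endothelial cells. VIM, an intermediate filament gene of mesenchymal cells, lay at 26.3 and 8.59 CPM against 86.1 and 38.4 CPM, and at 7496 and 10037 CPM in endothelial cells. IGF2, a growth factor, lay at 3.89 and 5.37 CPM against 19.96 and 22.5 CPM, and at 564 and 559 CPM in endothelial cells. IGFBP3, an IGF binding protein and dermal papilla marker, lay at 32.1 and 6.98 CPM against 93.0 and 36.2 CPM. The dermal list was lower in the mitotic cells of both libraries as well, and the endothelial and immune lists were lower beyond counting error in straight only. The dermal list summed to 144 and 115 CPM in non-mitotic cells, against 53.5 and 30.6 CPM in mitotic cells, the endothelial list to 30.0 and 2.93 CPM against 6.81 and 2.15 CPM, and the immune list to 28.1 and 5.54 CPM against 10.7 and 4.83 CPM. Their part in these ratios was not tested. Without the cells of the highest doublet scores, VIM no longer passed, with -0.13 as the ratio closer to 0, and with cells of at least 2000 genes IGF2 and IGFBP3 no longer passed, at -0.99 and -0.42.

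**Figure D3:**
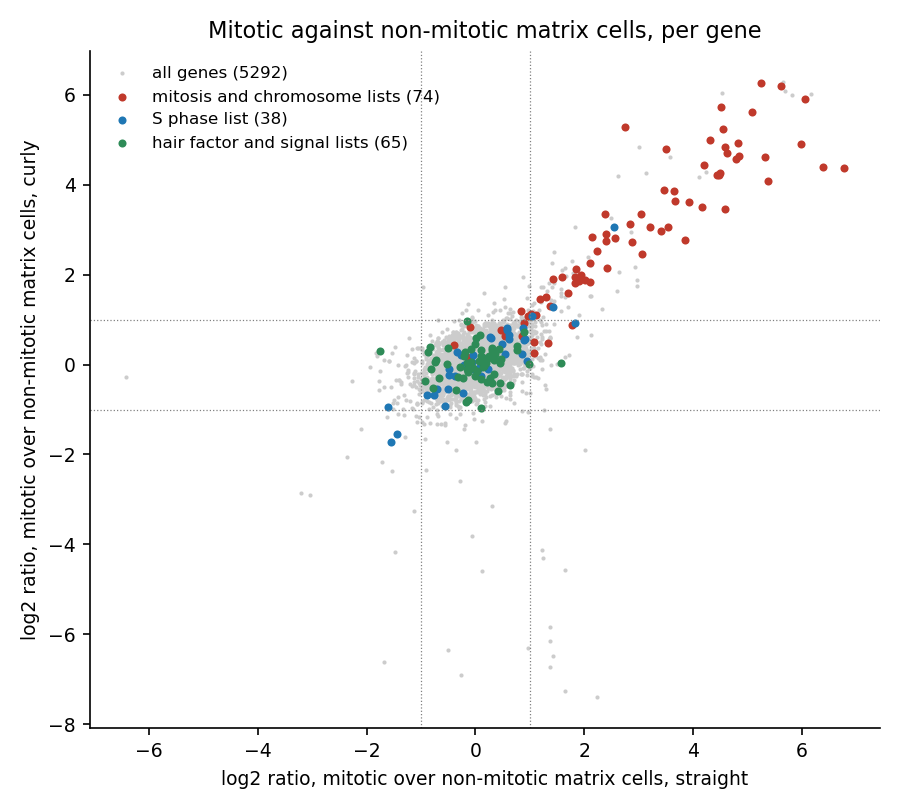
Log2 ratio of mitotic over non-mitotic matrix cells for 5292 genes, with the straight library on the horizontal and the curly library on the vertical axis; dotted lines mark 2-fold and colours mark the gene lists. Mitosis and chromosome genes (red) extend to the upper right, 2 S phase genes (blue) lie past 2-fold at the lower left, and hair factor and signal genes (green) stay near 0.

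The cells were also compared with cycling basal keratinocytes of the same library, chosen by the same cycle genes. These had at least 4 of the same 6 genes, KRT5 of at least 10 CP10K, DCN below 5 CP10K and the same limits on COL1A1 and the hair keratins (156 straight and 89 curly cells, median depth 15722 and 16666 UMIs). The mitotic matrix cells were higher in a small set of hair lineage and signalling genes, and much lower in basal adhesion and extracellular matrix genes. Of 5402 genes with at least 100 UMIs, 123 (2.28%) were at least 2-fold higher in the matrix cells in both libraries and 384 (7.11%) at least 2-fold lower. The median log2 ratio was -0.10 in straight and 0.00 in curly. DCN, KRT5, FABP7 and C1QTNF12 were used to choose the cells and their ratios are no result. The minimum of 100 UMIs was taken over both populations, so a gene could pass through the population in which it was higher.

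The cell cycle lists lay below the basal level in the median, more so in straight. The median log2 ratios of the S phase, G2/M, kinetochore, spindle and chromosome lists were -0.34, -0.81, -0.55, -0.87 and -0.57 in straight. In curly they were -0.24, -0.25, -0.34, -0.40 and -0.23. None of 38 S phase, 28 G2/M, 24 kinetochore, 30 spindle and 22 chromosome genes was higher, and 1, 2, 1, 3 and none were lower. These counts stand beside 2.28% and 7.11% of all genes, and little is read from them. The lower genes were RRM2, a ribonucleotide reductase subunit, TTK and CDKN3, SPC25 of the NDC80 complex, and NUSAP1, ANLN and CKAP2L of the spindle and the midbody. The list of G2/M regulators summed to 2821 and 2946 CPM in the matrix cells and to 4242 and 3456 CPM in basal cells. Of 13 G1 regulators 2 were higher and 2 lower, beside 2.28% and 7.11% of all genes, with a median of 0.28 and -0.01. CCND2 and CDK6, a D cyclin and its kinase partner, were higher in the matrix by 2.06 in both libraries and by 1.93 and 2.19. CDKN2C and CDKN2D, which inhibit CDK4 and CDK6, were lower, with ratios of -1.62 and -2.52 and of -1.14 and -1.09. CCND1 went opposite ways in the libraries, with ratios of 0.43 and -0.64.

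Of 21 hair lineage factors 7 were at least 2-fold higher in the matrix cells and 1 lower, beside 2.28% and 7.11% of all genes, with a list median of 0.48 and 0.36. MSX1 ranged from 0 to 11.98 CP10K per cell (median 2.16) in straight and from 0 to 8.77 (median 1.48) in curly, and its sum of 289 and 201 CPM compared with 5.05 and 18.9 CPM in basal cells (log2 ratio 5.84, interval 5.01 to 6.81, and 3.41, 2.87 to 4.01). The level of MSX1 in endothelial cells was 99.0 and 126 CPM, above that in basal cells. LEF1 ranged from 0 to 6.49 CP10K (median 0.991) and from 0 to 4.37 (median 0.535), and its sum of 98.2 and 73.6 CPM compared with 5.47 and 5.21 CPM. DLX4 and DLX3, homeobox factors of skin appendages, lay at 81.7 and 71.4 CPM against 4.63 and 4.56 CPM and at 68.1 and 66.6 CPM against 14.3 and 13.7 CPM. MSX2, a relative of MSX1, lay at 45.7 and 52.1 CPM against 9.68 and 11.1 CPM. ID2, an inhibitor of helix-loop-helix factors that responds to BMP, lay at 472 and 349 CPM against 84.6 and 126 CPM. TRPS1, a GATA type repressor known for sparse hair when mutated, was higher by 1.14 and 1.65. The related ID3 was 2-fold higher in straight only, at 1770 CPM against 391 CPM, with 1250 against 769 CPM in curly.

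SOX9, a factor of the outer root sheath and stem cells, was the lineage factor with the opposite sign. It lay at 12.6 and 16.1 CPM against 149 and 121 CPM in basal cells (log2 ratio -3.56, interval -4.48 to -2.77, and -2.91, -3.52 to -2.35). GATA3, a factor of the inner root sheath, lay at 95.3 and 113 CPM against 98.1 and 145 CPM, and TP63, the master factor of stratified epithelia, at 49.6 and 33.8 CPM against 49.7 and 37.1 CPM. Both were within 2-fold in each library. HOXC13, a factor for hair keratins, lay at 35.0 and 15.6 CPM against 5.05 and 2.61 CPM, from too few UMIs to be counted.

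In the WNT pathway 4 of 18 measured genes were higher and 2 lower, with a median of 0.42 and 0.99. The share over all genes was 2.28% higher and 7.11% lower, and the lower count is near it. The ligand gene WNT6 lay at 53.5 and 71.4 CPM against 11.8 and 18.9 CPM, whereas the ligand gene WNT3 had 3 and 2 UMIs in the matrix cells against 76 and 37 in basal cells (log2 ratio -3.46, interval -5.76 to -1.85, and -4.49, -7.59 to -2.53). The matrix cells thus held more of one ligand and less of the other. The remaining higher genes were NOTUM, KREMEN2 and WIF1, of which NOTUM and WIF1 also belong to the dermal papilla list. That list summed to 668 and 103 CPM in the matrix cells and to 348 and 147 CPM in basal cells, and its part in these ratios was not tested. NOTUM lay at 44.7 and 39.7 CPM, with 2 UMIs in straight and 1 UMI in curly basal cells (log2 ratio 5.73, interval 3.80 to 8.82, and 5.93, 3.41 to 11.25). KREMEN2, a receptor for DKK inhibitors, lay at 29.2 and 46.7 CPM, with 8 and 2 UMIs in basal cells (3.11, 1.96 to 4.45, and 5.16, 3.27 to 8.23). WIF1, a secreted WNT binding protein, lay at 86.5 and 16.7 CPM against 20.6 and 2.61 CPM, and 5 cells held 56.2% of its straight UMIs. The inhibitor SFRP1 was lower instead, at 20.4 and 14.5 CPM against 109 and 64.5 CPM. CTNNB1, which encodes beta-catenin, lay at 357 and 404 CPM against 199 and 137 CPM and passed 2-fold in curly only.

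Of 11 BMP genes 3 were higher and 1 lower, of which the lower count is near the 7.11% of all genes and the higher count above the 2.28%. The ligand genes BMP4 and BMP7 lay at 59.3 and 27.9 CPM against 11.4 and 9.12 CPM and at 36.9 and 40.8 CPM against 12.2 and 11.7 CPM. SMAD7, an inhibitor induced by the pathway, lay at 51.5 and 36.0 CPM against 15.6 and 11.7 CPM. FST, which binds activins and BMPs outside the cell, was lower at 30.1 and 12.9 CPM against 115 and 31.9 CPM. The higher genes of this list were thus both ligand genes and an inhibitor. The ligand gene BMP2 was 2-fold higher in curly only, with 60.3 and 76.8 CPM against 39.2 and 9.12 CPM.

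In the Hedgehog pathway the ligand gene SHH had 0 UMIs in straight and 1 UMI in curly matrix cells, and the coreceptor gene GAS1 had 0 and 2 UMIs, against 76 and 67 in basal cells. Neither transcript was thus found at more than a trace in the matrix cells at this depth. Of 15 FGF, IGF and EGF genes 2 were higher and 2 lower, and of 7 Notch genes 1 and 1, counts too small to set apart from the 2.28% and 7.11% of all genes. FGFR2, the receptor for papilla FGFs, lay at 112 and 88.1 CPM against 32.4 and 24.8 CPM, and ETV4, an ETS factor induced by FGF, at 53.5 and 30.1 CPM against 8.42 and 9.77 CPM. HBEGF, an EGF receptor ligand, and IGFBP3 were lower, with ratios of -1.39 and -1.34 and of -3.08 and -3.88. In the Notch list the ligand gene JAG1 was higher, at 94.3 and 75.2 CPM against 37.9 and 26.7 CPM, and the ligand gene DLL1 was lower, at 8.75 and 2.15 CPM against 34.1 and 9.12 CPM.

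Of 23 growth genes 2 were higher and none lower, beside 2.28% and 7.11% of all genes, with a median of 0.48 and 0.37. Both act in polyamine synthesis. ODC1, its first enzyme, lay at 144 and 141 CPM against 28.2 and 25.4 CPM, and SMS, the spermine synthase, at 140 and 139 CPM against 63.1 and 46.9 CPM. MYC was not among the higher genes, with 70.0 and 65.5 CPM against 170 and 111 CPM. Other leading genes, chosen by rank alone, were SPTSSB, a small subunit of the enzyme that starts sphingolipid synthesis, at 319 and 291 CPM against 21.5 and 22.8 CPM, and PCP4, a calmodulin regulator, at 72.9 and 49.4 CPM against 2.53 and 3.91 CPM.

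The basal cells were chosen by KRT5, and its partner keratin KRT14 is tied to that choice as well. Without these, 9 of 14 basal layer genes were at least 2-fold lower and none higher, beside 7.11% and 2.28% of all genes, with a median of -2.19 and -1.63. As a description, KRT14 lay at 350 and 407 CPM against 15877 and 14114 CPM. KRT15, a keratin of basal and stem cells, lay at 296 and 178 CPM against 1620 and 623 CPM. The anchoring genes of the basement membrane were lower too. COL17A1, a hemidesmosome collagen, lay at 49.6 and 56.9 CPM against 337 and 310 CPM, and ITGB4, an integrin of the same junctions, at 26.3 and 23.6 CPM against 110 and 64.5 CPM. The laminin gene LAMB3 had ratios of -2.57 and -2.03. POSTN, which encodes the adhesion protein periostin, lay at 21.4 and 2.69 CPM against 898 and 291 CPM and was among the lowest of all genes (log2 ratio -5.39, interval -6.07 to -4.79, and -6.76, -8.39 to -5.53).

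Without DCN, which the rule used, 1 of 12 genes of the extracellular matrix was higher and 6 were lower, beside 2.28% and 7.11% of all genes. MDK and PTN, a pair of related heparin binding growth factors, differed in opposite directions. MDK lay at 30.1 CPM in both libraries against 6.31 and 12.4 CPM in basal cells, while PTN lay at 4.86 and 6.44 CPM against 275 and 244 CPM. SPARC, a collagen binding protein, lay at 36.9 and 17.2 CPM against 667 and 498 CPM. COL4A1, COL7A1, SDC1 and THBS1 were the other lower genes of this list. Of 6 suprabasal genes 5 were lower and none higher, beside the same shares. Among them were KRT1 at 60.3 and 51.6 CPM against 410 and 667 CPM and KRT10 at 176 and 225 CPM against 559 and 1364 CPM. The suprabasal list summed to 1839 and 3574 CPM in basal cells and to 1313 and 3431 CPM in endothelial cells. The part of free RNA in these suprabasal ratios was not tested. Of 7 interferon response genes 6 were lower against 7.11% of all genes, and the list summed to 42.8 and 520 CPM in the matrix cells and to 151 and 6067 CPM in basal cells. Of 17 genes of the dissociation response 2 were lower, HSPB1 and SOCS3, which is near that share. The lowest ratios also included FXYD3, a regulator of the sodium pump, at 48.6 and 27.4 CPM against 1524 and 1197 CPM, and SPINK4, a protease inhibitor, at 13.6 and 13.4 CPM against 669 and 426 CPM. CDH13, LMO1, IL20RA and MS4A7 were at 3 UMIs or fewer in the matrix cells of each library, and between 37.05 and 97.7 CPM in the basal cells.

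**Figure D4:**
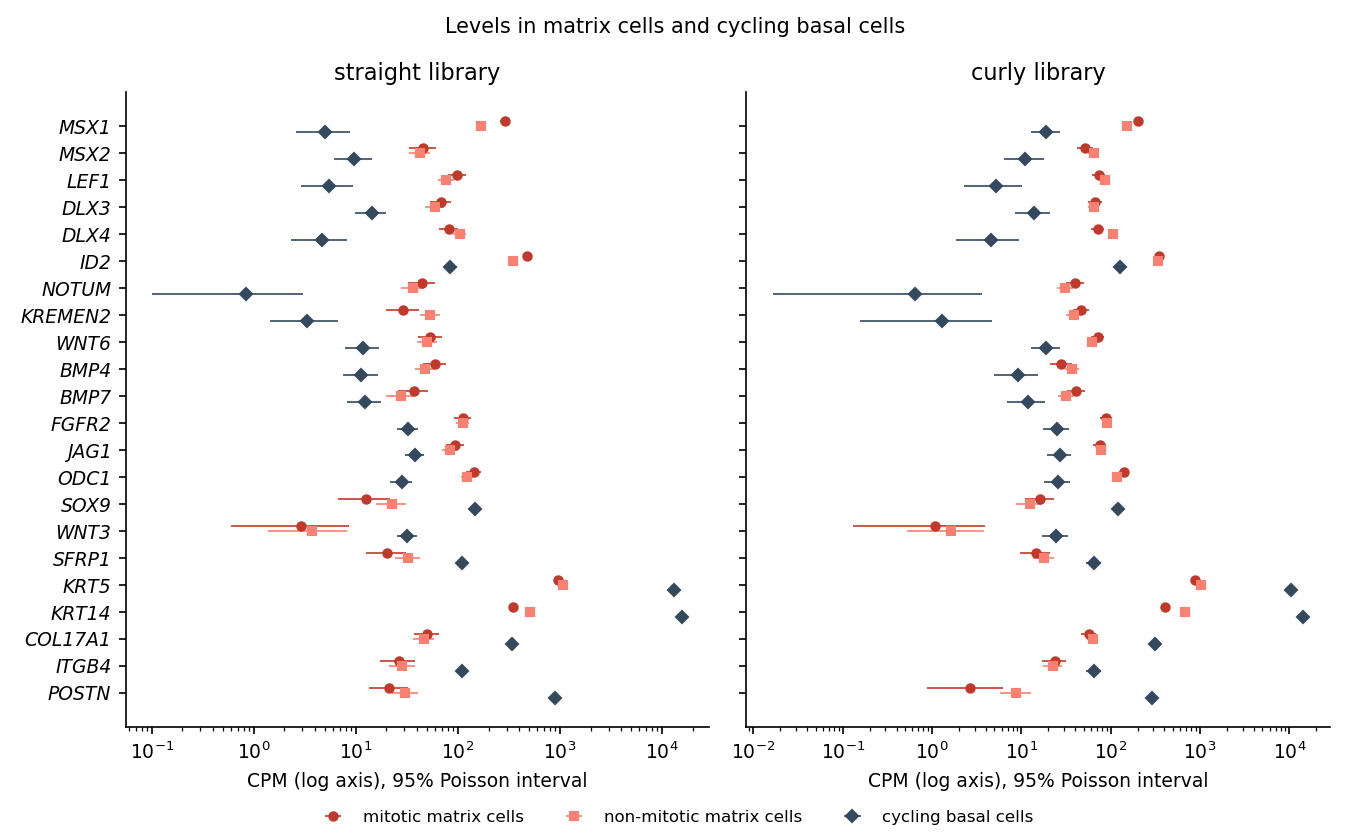
Levels of 22 genes in CPM on a log axis, with exact 95% Poisson intervals, in mitotic matrix cells (red circles), non-mitotic matrix cells (pink squares) and cycling basal cells (dark diamonds) of the straight (left) and curly (right) library. The matrix populations lie side by side for most genes, while MSX1, LEF1, DLX4 and NOTUM are at least 10-fold lower in basal cells of both libraries, and POSTN is more than 10-fold higher; KRT5 and KRT14, which are tied to the choice of the basal cells, are shown for orientation.

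Mitotic matrix cells also varied among themselves along the cycle. Within each library they were ordered by the share of S phase UMIs among all UMIs of the S phase, G2/M, kinetochore and spindle lists, and divided into 3 parts of nearly equal size (20, 20 and 20 straight and 34, 34 and 33 curly cells). The parts are ranges along this order and not cell types. The median S phase share was 46.2%, 29.8% and 16.8% in straight and 48.8%, 29.7% and 18.6% in curly, from the part rich in S phase UMIs to the part rich in mitosis UMIs. The median depth of the parts lay between 16781 and 19691 UMIs. Of 2050 genes with at least 100 UMIs, 22 (1.07%) were at least 2-fold higher in the S phase part in both libraries and 45 (2.2%) at least 2-fold lower. Most named genes at both ends belong to the ordering lists and carry no information of their own, such as MCM3 at 120, 26.6 and 5.73 CPM in straight or CDC20 at 23.5, 85.6 and 241 CPM.

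The genes of the rule that did not enter the order are given along it as a description. FABP7 lay at 338, 1367 and 1071 CPM from the S phase part to the mitosis part in straight, and at 408, 628 and 1075 CPM in curly. In both libraries the S phase part had the lowest level, and its log2 ratio over the mitosis part was -1.67 (interval -1.98 to -1.36) in straight and -1.40 (-1.61 to -1.19) in curly. C1QTNF12, the other entry gene, lay at 302, 289 and 318 CPM and at 281, 320 and 290 CPM. DCN lay at 3878, 6156 and 5454 CPM and at 4919, 5015 and 7122 CPM, with ratios of -0.49 and -0.53 that stayed within 2-fold. FABP7 and C1QTNF12 were both used to choose the cells, so that a cell without FABP7 had to hold C1QTNF12, and the share of cells that entered by each gene was not compared between the parts.

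MSX1 lay at 235, 280 and 349 CPM and at 186, 182 and 244 CPM, with ratios of -0.57 and -0.40. LEF1 showed no common course, at 79.3, 133 and 83.0 CPM in straight and 72.7, 69.9 and 78.9 CPM in curly. None of 14 hair lineage factors, 6 G1 regulators, 4 WNT genes, 18 growth genes and 6 basal layer genes was 2-fold apart between the end parts, beside 1.07% and 2.2% of all genes, and little is read from this in lists of so few genes.

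Genes higher in the S phase part and outside the ordering lists included DNAJC9, a chaperone that handles histones, at 117, 62.0 and 28.6 CPM in straight and 120, 68.4 and 23.9 CPM in curly. TSEN34, a subunit of the tRNA splicing endonuclease, lay at 159, 121 and 45.8 CPM and at 252, 113 and 78.9 CPM. HSPA9, a mitochondrial chaperone, lay at 156, 82.7 and 51.5 CPM and at 132, 99.5 and 42.2 CPM. All 3 declined from part to part in both libraries, although HSPA9 was no longer 2-fold apart when the cells were divided into 2 parts, at 0.80. ATAD2, a chromatin ATPase, was higher by 2.04 and 1.49 on the log2 scale. ARL6IP1, a shaping protein of the endoplasmic reticulum, went the other way, at 29.4, 76.8 and 198 CPM in straight and 19.3, 73.0 and 231 CPM in curly.

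Genes known from the inner root sheath or the shaft were read cell by cell in the mitotic matrix cells. GATA3 had UMIs in 48.3% of straight and 65.3% of curly mitotic matrix cells, and in 7.69% and 9.01% of endothelial cells. Its level was within 2-fold of that in cycling basal cells, as given above. GATA3 is thus not particular to the matrix here, and its UMIs are not read as a mark of the inner root sheath. At 4000 UMIs per cell the shares in the matrix were 26.7% and 25.7% (intervals 16.1 to 39.7 and 17.6 to 35.4). The median depths of both libraries were alike before thinning, so that thinning bears on the comparison with endothelial cells and not on that of the libraries. HOXC13 had UMIs in 35.0% and 21.8% of cells, against 0.641% and 3.60% of endothelial cells, and in 10.0% and 4.95% at 4000 UMIs. Both genes were found together in 8 of 60 straight and 10 of 101 curly cells (13.3% and 9.90%), GATA3 alone in 21 and 56, HOXC13 alone in 13 and 12, and neither in 18 and 23. Cells with both genes were few at 4000 UMIs, with 2 of 60 and 0 of 101, and a share of both this low at this depth says little on whether the genes exclude each other.

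DLX3 had UMIs in 55.0% and 55.4% of the cells, against 4.49% and 4.50% of endothelial cells, and MSX2 in 40.0% and 45.5%, against 5.77% and 1.80%. NOTUM had UMIs in 35.0% and 41.6%, against 1.28% of straight and 0 of 111 curly endothelial cells. WNT10B, a WNT ligand gene of the follicle, had UMIs in 8.33% and 26.7%, and in 1.67% and 10.9% at 4000 UMIs, against 0.641% of straight and 0 of 111 curly endothelial cells. With all UMIs, the shares of NOTUM, DLX3 and MSX2 were thus alike in both libraries and above those of endothelial cells, which were less deep. That of WNT10B was higher in the curly cells. At 4000 UMIs the intervals for WNT10B overlapped (0.0422 to 8.94 and 5.56 to 18.7), and in non-mitotic matrix cells WNT10B had UMIs in 18.3% and 19.1% of cells. Transcripts of the inner root sheath keratins were also found in single cells, below the limit of the rule. KRT71 had UMIs in 45.0% and 76.2% of the mitotic cells, but endothelial cells had them in 42.3% and 61.3%, and at 4000 UMIs the endothelial shares of 19.6% and 44.3% were above those of the matrix cells, 13.3% and 33.7%. KRT27 likewise had UMIs in 3.33% and 17.8% of the matrix cells at 4000 UMIs, against 4.46% and 31.4% of endothelial cells. These shares were at or below the background and are not read as expression.

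The wool types were compared in the summed mitotic cells of each library. The cycle genes were close in both, while single genes of interferon response, papilla and suprabasal cells differed. Of 2834 genes with at least 100 UMIs, 35 (1.24%) were at least 2-fold higher in curly and 24 (0.847%) at least 2-fold lower, with a median log2 ratio of -0.01. None of 26 S phase, 15 G2/M, 9 kinetochore, 16 chromosome, 9 G1, 16 hair lineage, 4 Notch, 20 growth and 9 basal layer genes was 2-fold apart, and of 22 spindle genes 1 was lower, TUBA1C. The S phase, G2/M, kinetochore and spindle lists had median ratios of 0.16, 0.11, 0.15 and 0.01.

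Most genes that were 2-fold apart pointed the same way in other cells of the same libraries. Of the 35 higher genes, 34 had the same direction in non-mitotic matrix cells and 22 were 2-fold higher there as well, and in cycling basal cells 30 and 22. In endothelial cells 31 of the 33 with at least 20 UMIs had the same direction and 19 were 2-fold higher. Of the 24 lower genes, 24 had the same direction in non-mitotic matrix cells and 11 were 2-fold lower, 20 and 13 in cycling basal cells, and 19 of 22 and 8 in endothelial cells. Most such differences thus had the same direction in unlike cells of a library, while fewer were 2-fold apart there. CRABP1 and RAMP1, given below, were among the exceptions. The share with the same direction over all genes was not counted. Library and wool type cannot be told apart.

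IFI6, an interferon induced gene, had 4 UMIs in straight and 770 in curly mitotic cells (log2 ratio 6.73, interval 5.37 to 8.61), and was found in 6.67% and 90.1% of cells. Its ratio was 6.52 in non-mitotic matrix cells, 9.26 in cycling basal cells and 6.77 in endothelial cells. CST6, a protease inhibitor of the cornifying epidermis, had 350 and 2145 UMIs (1.76, interval 1.60 to 1.93), with 1.40, 1.10 and 1.44 in the other populations. KRTDAP, a secreted protein of differentiating keratinocytes, had 78 and 368 UMIs (1.38, 1.03 to 1.75), with 0.83, 1.36 and 1.43. These 3 genes had ratios above 0 in all populations compared. Endothelial cells held 603 and 989 UMIs of CST6 and 397 and 648 UMIs of KRTDAP, and the part of free RNA in these ratios was not tested. KRT71, whose level was limited by the rule, had 39 and 183 UMIs (1.37, 0.87 to 1.91), and 1.24 in endothelial cells. RAMP1, a partner of the calcitonin receptor-like receptor, had 44 and 208 UMIs (1.38, 0.91 to 1.89) with 1.33 in non-mitotic matrix cells as well, -0.54 in basal cells and -0.35 in endothelial cells. Of the 10 genes with the highest ratios 9 have no gene name in the table or in RefSeq.

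CRABP1, a retinoic acid binding protein of the dermal papilla, had 503 UMIs in straight and 68 in curly mitotic cells (log2 ratio -3.74, interval -4.13 to -3.38). It was found in 36 of 60 straight cells (0 to 59.1 CP10K, median 0.545) and in 24 of 101 curly cells (0 to 8.94, median 0). The straight sum rested on few cells, since 5 of them held 72.8% of its UMIs and 1 held 140. The ratio was -2.58 in non-mitotic matrix cells, -0.11 in cycling basal cells and 1.02 in endothelial cells. WIF1, another papilla gene, had 89 and 31 UMIs (-2.38, -3.02 to -1.77), and 5 cells held 56.2% of the straight UMIs. LGALS1, which encodes galectin-1, had 251 and 57 UMIs (-3.00, -3.44 to -2.58) in 52 of 60 and 40 of 101 cells. Its UMIs were spread more evenly, with 33.1% of the straight sum in 5 cells, and its ratio was -2.57 in non-mitotic matrix cells, -1.25 in basal cells and -0.71 in endothelial cells. The dermal papilla list, which includes CRABP1 and WIF1, summed to 830 and 214 CPM in non-mitotic matrix cells. It summed to 348 and 147 CPM in basal cells and to 958 and 1492 CPM in endothelial cells. Of the 1229 and 1159 UMIs of the list in endothelial cells, 49 and 60 were of CRABP1 and 17 and 5 of WIF1. The endothelial sum thus rested mostly on other genes of the list. The part of papilla RNA in the ratios of CRABP1 and WIF1 was not tested.

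TUBA1C, an alpha tubulin, had 473 and 281 UMIs (log2 ratio -1.61, interval -1.83 to -1.39), with -1.79 in non-mitotic matrix cells, -1.57 in basal cells and -0.28 in endothelial cells. GTF2A2, a subunit of the general factor TFIIA, and METTL23, a methyltransferase, had ratios of -1.41 and -1.38, and lay at -1.13 or lower in the other 3 populations. RPL37A, a ribosomal protein gene, had 5310 and 4401 UMIs (-1.13, -1.19 to -1.07), with -1.18, -1.08 and -1.504 in the other populations. In the signalling lists 2 of 8 WNT genes and 1 of 4 BMP genes were lower in curly and none higher, beside 0.847% and 1.24% of all genes. Besides WIF1 these were the WNT receptor gene FZD7, with 80 and 69 UMIs (-1.07, -1.56 to -0.59), and BMP4, with 61 and 52 UMIs (-1.09, -1.65 to -0.53). The ratios of FZD7 and BMP4 in non-mitotic matrix cells were -0.47 and -0.37, within 2-fold, and their intervals in the mitotic cells reached past 2-fold on the side of smaller differences.

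**Figure D5:**
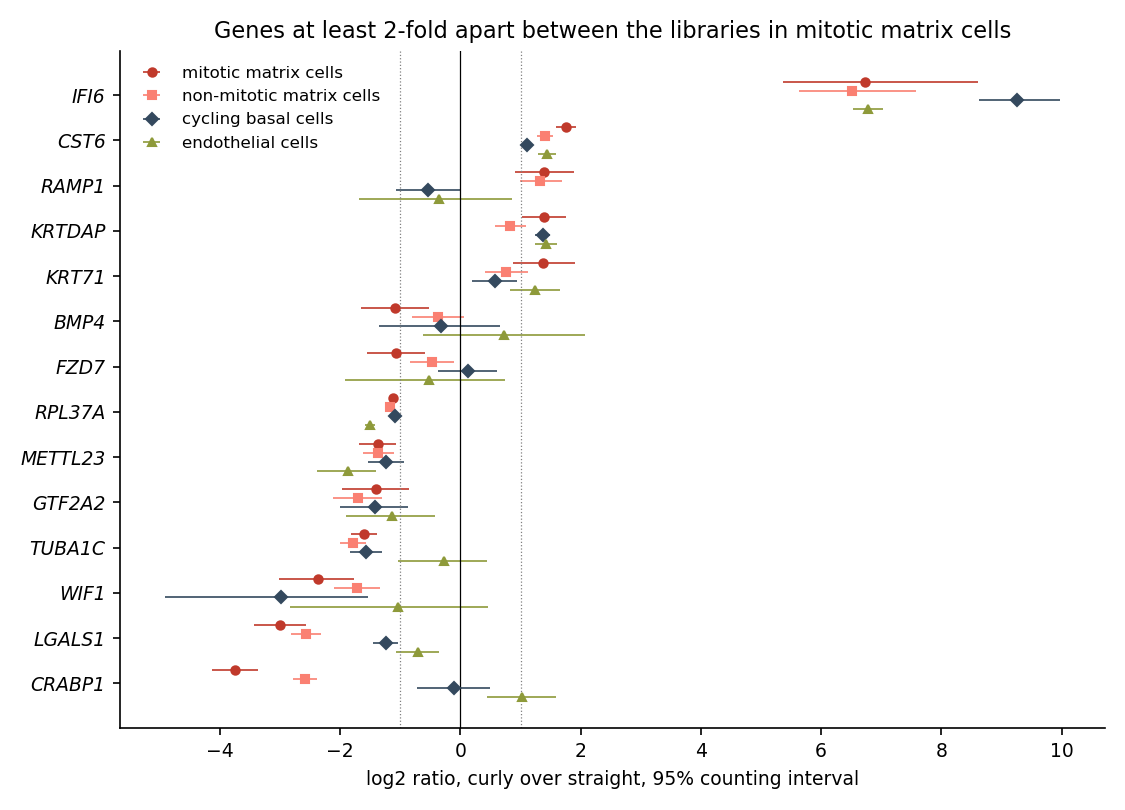
Log2 ratio of curly over straight with its exact 95% counting interval for 14 genes that were at least 2-fold apart in mitotic matrix cells (red circles), beside the ratios in non-mitotic matrix (pink squares), cycling basal (dark diamonds) and endothelial cells (green triangles); dotted lines mark 2-fold. IFI6, CST6 and KRTDAP are above 0 and RPL37A and METTL23 below 0 in all 4 populations, while CRABP1 is lowest in the matrix populations and RAMP1 lies past 2-fold in those and below 0 in the others.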

How the data were processed

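The authors dissociated pooled lambskin, made 10x Genomics libraries and counted UMIs on Oar_rambouillet_v1.0. Per the labels, Cell Ranger 3.0.2 is among the tools of their processing notes, while the methods of the paper name an older version. The natural log values deposited by the authors (18161 genes in 14037 cells) were read as ln of 1 plus UMIs scaled to 10000 per cell. Whole UMI counts were recovered from them for 100% of 28552149 values above 0, within a tolerance of 0.01.

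Levels are CPM of UMIs summed over cells, with exact Poisson intervals, and shares have exact Clopper-Pearson intervals and log2 ratios the exact interval of the binomial split. A gene counted as apart at 2-fold or more with at least 100 UMIs, in the same direction in both libraries where populations were compared. Cells were also thinned to 4000 UMIs, which left 112 of 156 straight and 70 of 111 curly endothelial cells. Doublets were kept, and the 6% of cells with the highest Scrublet scores were left out as an alternative. Other alternatives changed the number of cycle genes, the genes per cell, the UMI minimum and the number of parts. The scripts were tested on simulated data.

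Of 608 genes in 28 lists, 547 were found in the table. Genes named are those of the rule, examples from the lists, and the 10 highest and 10 lowest ratios of each comparison. The cells and the lists were chosen with earlier results of these data known. KRT14, KRT15 and other genes without a symbol, 305 in all, took their names from RefSeq (ARS-UI_Ramb_v3.0). Results for 1 gene named by this rule are not reported here. Promoters were not analysed here. The tools were scanpy 1.11.5, scipy 1.17.1, pandas 2.3.3, numpy 2.4.6 and matplotlib 3.10.9 under Python 3.11.15.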

Additional observations from a re-analysis of the deposited data

Results flagged for a closer look

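In 10 genes the ratio within the straight library and the ratio within the curly library were both at least 2-fold and had opposite signs, and these differences were not tested. Between mitotic and non-mitotic matrix cells these were the heat shock gene HSPA6, with a log2 ratio of 2.02 in straight and -1.89 in curly, LOC101106046 with 1.25 and -4.30, AK8 with 1.38 and -1.44, LOC100526782 with 1.22 and -4.13, and the transcription factor gene SNAI1 with 1.26 and -1.01. Between mitotic matrix cells and cycling basal cells they were LBH with 1.31 and -1.60, MINDY2 with -1.11 and 1.12, the keratin gene KRT19 with 1.84 and -2.46, LOC114110138 with 1.49 and -1.87, and LOC114110140 with 1.34 and -1.70. In KRT19, 5 cells held 89.2% of the UMIs of the straight mitotic matrix cells.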

How the results depend on the processing

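No paired analysis was possible because each wool type has 1 library and the result comes from no test. With at least 3 of the 6 cycle genes required, the cells were 1.33% and 1.91% of the straight and curly library and 38.7% and 36.9% of matrix cells. With at least 5 they were 37 in straight, 0.573% and 0.923% of the libraries and 16.7% and 17.8% of matrix cells, and 12 genes were lower in curly. After thinning to 4000 UMIs, 17 and 27 cells met the rule, 0.367% and 0.515% of the cells kept and 9.94% and 9.38% of matrix cells, and GATA3 and HOXC13 were found together in 3.33% and 0%. With cells of at least 2000 genes only, the shares of the libraries were 1.69% and 2.71%. With at least 20 UMIs per gene, 311 genes were higher and 223 lower in curly, 265 and 136 in mitotic over non-mitotic cells, and 335 and 916 over basal cells. With at least 300 UMIs these were 16 and 7, 58 and 4, and 44 and 166, and 3 and 14 along the cycle order. Without the highest doublet scores LOC101120093 turned to 0.56 between mitotic and non-mitotic cells. The number of genes or cells that enter is set by these choices. The other 58 summary values moved by less than 1.5 times or their interval, and 475 values of single genes kept their direction and side of 2-fold. Besides the genes named in the report, none moved across it. Depth limits genes under 100 UMIs, among them HOXC13 and NOTUM along the cycle.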
